A study of Homo sapiens with 6 samples.

Results

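Aminoacyl-tRNA synthetases are the enzymes that join each amino acid to its tRNA. The genes described here are the 40 protein-coding rows, among 38637 rows in the deposited expression table, whose symbol is that of a synthetase (1 letter followed by ARS, ARS1 or ARS2, or EPRS1, FARSA or FARSB) or of a scaffold protein that holds several of them together (AIMP1, AIMP2 and EEF1E1). They comprise 20 cytosolic enzyme genes, 17 mitochondrial enzyme genes, whose symbols end in ARS2, and 3 scaffold genes. All 40 had a mean of at least 1 TPM and were tested. TPM, a length-normalised abundance, divides the reads of a gene by its length and scales each library to the same total, so levels can be compared between genes.

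PolyA-Seq was performed on HCCLM3-SR, a line of human hepatocellular carcinoma cells selected for resistance to the kinase inhibitor sorafenib. The 3 knockdown libraries came from cells transfected with siRNA against the circular RNA cDCBLD2 (si-cDCBLD2), and the 3 control libraries from cells transfected with control siRNA. Both groups received 5 µM sorafenib, and the siRNA was applied for 3 days. No library came from cells without sorafenib or from a second line, and the labels do not say whether the 3 libraries of a group were separate cultures, so p-values measure only the spread between these libraries.

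The cytosol and the mitochondrion each make protein with their own set of charged tRNAs. Most amino acids therefore have a cytosolic and a mitochondrial synthetase from separate nuclear genes, while GARS1 and KARS1 each supply both compartments. Several cytosolic enzymes are assembled with the scaffold proteins into the multisynthetase complex, and transcription of many cytosolic synthetase genes is raised by ATF4, the factor that responds to a shortage of amino acids.

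At least 17492673 and at most 23064302 reads per library were recovered from the TPM values, and each of the 40 genes had at least 115 reads in every library. DCBLD2, the host gene of cDCBLD2, stood at 58.1, 25.9 and 31.6 TPM across the knockdown libraries, against 71.5, 48.5 and 50.7 TPM across the controls. The groups overlapped, but each knockdown library was below the control of the same number, with a log2 fold change of -0.61 (adjusted p = 0.253 in limma, and 0.0139 with the replicate number as a block). These PolyA-Seq values are given for the host gene, do not separate the circular from the linear RNA, and do not measure the knockdown of cDCBLD2. After cDCBLD2 knockdown, the paper saw no obvious consistent change in DCBLD2 mRNA or protein across its resistant lines. The epithelial keratins KRT8 (2999 to 4413 TPM) and KRT18 (1800 to 2555 TPM) were abundant. Other epithelial markers were not: CDH1 was at 37.7 to 62 TPM, and KRT19 (0.806 to 1.91 TPM) and EPCAM (0.0686 to 0.323 TPM) were near 0. The hepatocyte products ALB (0.189 to 1.58 TPM) and APOA1 (0.35 to 0.774 TPM) were near 0, and the hepatocyte factor HNF4A was at 22.9 to 31.3 TPM. The summed level of 5 epithelial markers, mostly KRT8 and KRT18, was 5862 to 7008 TPM after knockdown and 4856 to 5659 TPM in the controls. That of 8 hepatocyte or hepatoma markers was 34.7 to 40.4 and 30.9 to 31.8 TPM. KRT8, KRT18 and HNF4A were higher with the block (adjusted p = 0.00669, 0.00954 and 0.0196 in limma), but not called without it (0.126, 0.197 and 0.0949). The hepatocyte marker APOB was lower with the block (log2 fold change -0.80, adjusted p = 0.0126 in limma, and 0.138 without it). With the block 9.94% of all genes were called higher and 25.0% lower. Replicate 1 stood apart from replicates 2 and 3 in both groups: 19 of the 40 genes had their highest and 8 their lowest level of each group in replicate 1. The sum of 5 fibroblast markers was 30.5 to 73.6 TPM after knockdown and 29.6 to 43.1 TPM in the controls. Most of it was LUM, at 59.1, 26.7 and 31.6 TPM after knockdown and at 39.6, 28.2 and 30.3 TPM in the controls. LUM was not called (log2 fold change 0.18, adjusted p = 0.728 in limma, and 0.312 with the block). PDGFRB and DCN were under 1 TPM. In knockdown replicate 1, COL1A2, a fibroblast collagen, was at 2.67 TPM and was listed at 0 in the other 5 libraries. Another collagen, COL1A1, was at 11.2, 3.61 and 3.64 TPM after knockdown and at 3.35, 1.13 and 2.15 TPM in the controls (log2 fold change 1.06, adjusted p = 0.196 in limma, and 0.0132 with the block). The sum of the proliferation markers MKI67, TOP2A and CCNB1 was 147 to 246 TPM after knockdown and 272 to 417 TPM in the controls, and the part of any of these markers in the results on the synthetases was not tested.

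A few synthetase mRNAs were lower after cDCBLD2 knockdown. In limma's test of log2(TPM + 1), adjusted by Benjamini-Hochberg over all 13980 genes tested, 4 of the 40 genes were lower at an adjusted p under 0.05, as were 0.629% of all genes. Among them were the cytosolic and mitochondrial isoleucyl-tRNA synthetases IARS1 and IARS2 and the cytosolic leucyl-tRNA synthetase LARS1. No member was higher, against 0.250% of all genes. At an unadjusted p under 0.05 in limma, 15 members (37.5%) were lower and 0 higher, against 19.4% and 6.8% of all genes. Once the GC trend of each library had been removed, 1 member was higher at that threshold. Limma-voom on the recovered reads called 0 members higher, against 193 of 15018 genes, though limma-voom with the replicate block called CARS1 higher (adjusted p = 0.0444). Without the block, none of the 4 was called once the GC trend of each library had been removed, while all 4 were called after that step with the replicate block. When the replicate number entered as a block, 18 members were lower and 0 were higher, against 25.0% and 9.94% of all genes. The 18 comprised 11 cytosolic enzymes, 5 mitochondrial enzymes and 2 scaffold proteins, and included the 4 genes called without it. Of the 18, 9 were also called with the block after removal of the GC trend (the GC offset), 15 with limma-voom and the block, and 8 in both. Over all genes, limma-voom with the block called 20.5% lower and 17.5% higher.

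IARS1, which charges isoleucine tRNA in the cytosol (chromosome 9, 92210207 to 92293756, minus strand, GRCh38), was at 220, 213 and 201 TPM in knockdown replicates 1 to 3. It was at 324, 327 and 335 TPM in the controls. Every knockdown library lay far below every control library, and the spread within each group was small. The means were 211 ± 9.97 TPM (SD, n = 3) and 329 ± 5.87 TPM (SD, n = 3), and the log2 fold change was -0.64 (standard error 0.06, adjusted p = 0.0444 in limma), a level 35.7% lower on that scale. IARS2, its mitochondrial counterpart (chromosome 1, 220094102 to 220148041, plus strand), was at 86.1, 83.1 and 83.8 TPM after knockdown and at 130, 121 and 129 TPM in the controls. The groups were again well apart, and both isoleucine enzymes fell by a like amount. The log2 fold change of IARS2 was -0.58 (standard error 0.06, adjusted p = 0.0444 in limma). IARS2 has a pseudogene, and how shared reads were counted is not given in the sources used here.

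LARS1, which charges leucine tRNA in the cytosol and also takes part in leucine sensing (chromosome 5, 146113038 to 146182660), was at 63.9, 62.4 and 63.8 TPM after knockdown. In the controls it was at 93.7, 97.6 and 101 TPM. The knockdown libraries were almost level with each other and all below the controls. The log2 fold change was -0.61 (standard error 0.06, adjusted p = 0.0444 in limma). The exons of LARS1 share 42 bases with those of a neighbouring gene. Without any 1 of the 5 libraries other than knockdown replicate 1, limma called 0 members lower (11 to 14 members at an unadjusted p under 0.05, and 2156 to 2796 of the 13955 to 14027 genes tested), and it called 0 of all genes in those fits. Without knockdown replicate 1 it called 15 members lower, the 4 genes among them, and 0 higher, against 19.8% and 4.61% of all genes.

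**Figure D1:**
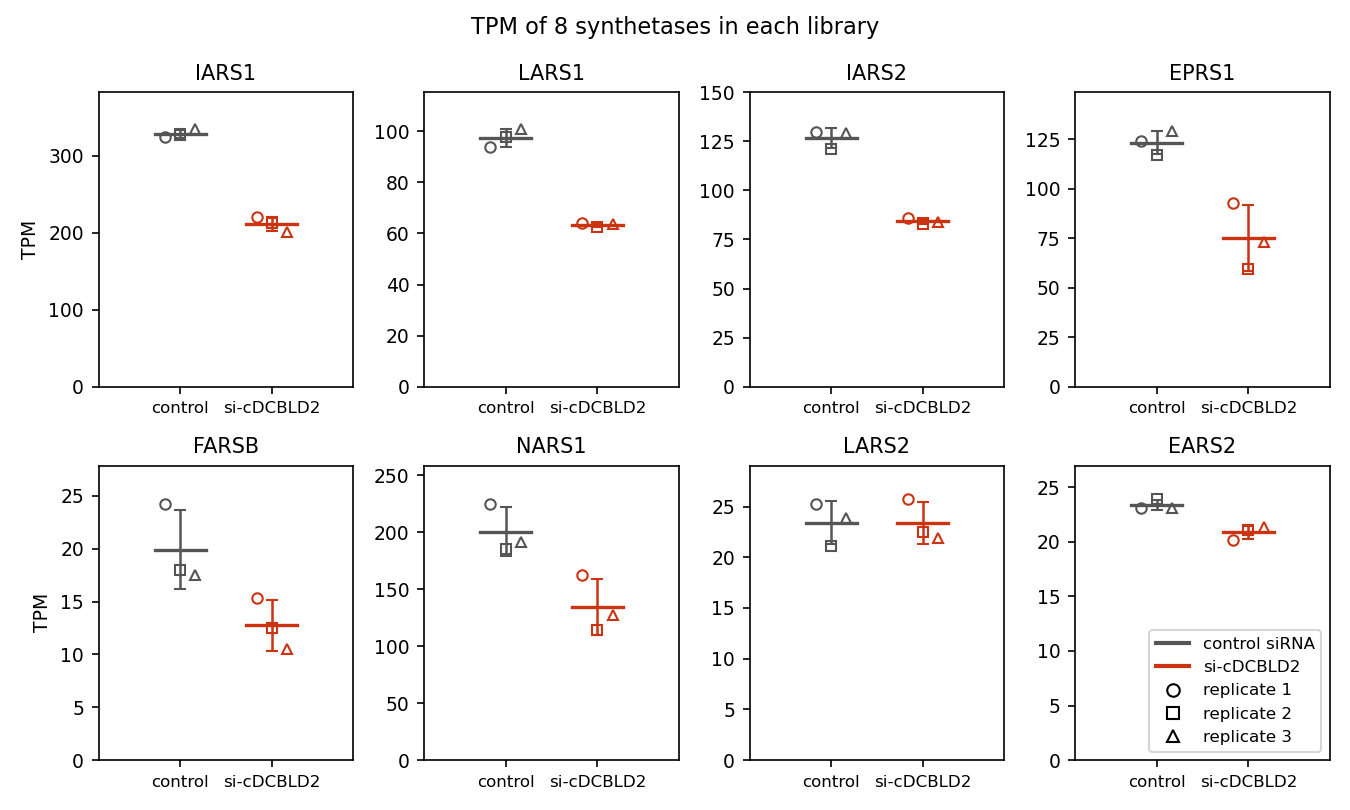
TPM of 8 synthetases in each library (y axis, from 0), for control siRNA (grey) and si-cDCBLD2 (red); symbols mark the replicate number, and bars the mean ± SD of 3 libraries. IARS1, LARS1, IARS2, EPRS1, FARSB, NARS1 and EARS2 have knockdown libraries that all lie below the controls, while LARS2 overlaps.

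With all 6 libraries, EPRS1 had the largest fold change of all 40 genes. It encodes a single cytosolic protein that charges both glutamate and proline tRNA, and it lies on chromosome 1 from 219968601 to 220046658 on the minus strand, with 47443 bases between it and IARS2. EPRS1 was at 92.6, 59.4 and 73.3 TPM after knockdown and at 124, 117 and 129 TPM in the controls. The groups did not overlap, but the knockdown libraries were spread, with replicate 1 the highest. The log2 fold change was -0.73 (standard error 0.16, adjusted p = 0.0673 in limma, and 0.00831 with the block). Without knockdown replicate 2 it was -0.58, a smaller change than that of IARS1 (-0.64).

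A further set of cytosolic enzymes passed with the replicate block but not without it. FARSB, the beta subunit of phenylalanyl-tRNA synthetase, was at 15.3, 12.5 and 10.5 TPM after knockdown and at 24.2, 18 and 17.5 TPM in the controls. Its log2 fold change was -0.60 (adjusted p = 0.108 in limma, and 0.00608 with the block). It was -0.26 with the GC offset and block, and not called (adjusted p = 0.0663). NARS1, the asparagine enzyme, was at 162, 114 and 127 TPM after knockdown and at 225, 185 and 191 TPM in the controls. In both genes replicate 1 was the highest library of each group, and the groups did not overlap. The log2 fold change of NARS1 was -0.58 (adjusted p = 0.0851 in limma, and 0.00445 with the block), and it was -0.33 with the GC offset and block (adjusted p = 0.00828).

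KARS1, the lysine enzyme, was at 218, 184 and 156 TPM after knockdown and at 240, 205 and 192 TPM in the controls. Each knockdown library was below the control of the same number although the groups overlapped, and the log2 fold change was -0.20 (adjusted p = 0.405 in limma, and 0.0279 with the block). That call was lost with the GC offset and block (-0.03, adjusted p = 0.515) and with limma-voom and the block (adjusted p = 0.162). With 1 library left out, the log2 fold change of KARS1 ranged from -0.32 to -0.08. VARS1, the cytosolic valine enzyme, was at 133, 147 and 138 TPM after knockdown and at 171, 164 and 154 TPM in the controls. Its groups did not overlap, and its log2 fold change was -0.23 (adjusted p = 0.119 in limma, and 0.0293 with the block). It was -0.36 with the GC offset and block (adjusted p = 0.00816), and not called with limma-voom and the block (adjusted p = 0.139). TARS1, RARS1 and GARS1, the threonine, arginine and glycine enzymes, are named after their values were seen. They had log2 fold changes of -0.58, -0.47 and -0.34, with adjusted p in limma of 0.115, 0.122 and 0.0662, and 0.00591, 0.0192 and 0.00859 with the block. With the GC offset and block TARS1 and GARS1 were called (-0.30 and -0.24), while RARS1 was not (-0.11, adjusted p = 0.201).

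**Figure D2:**
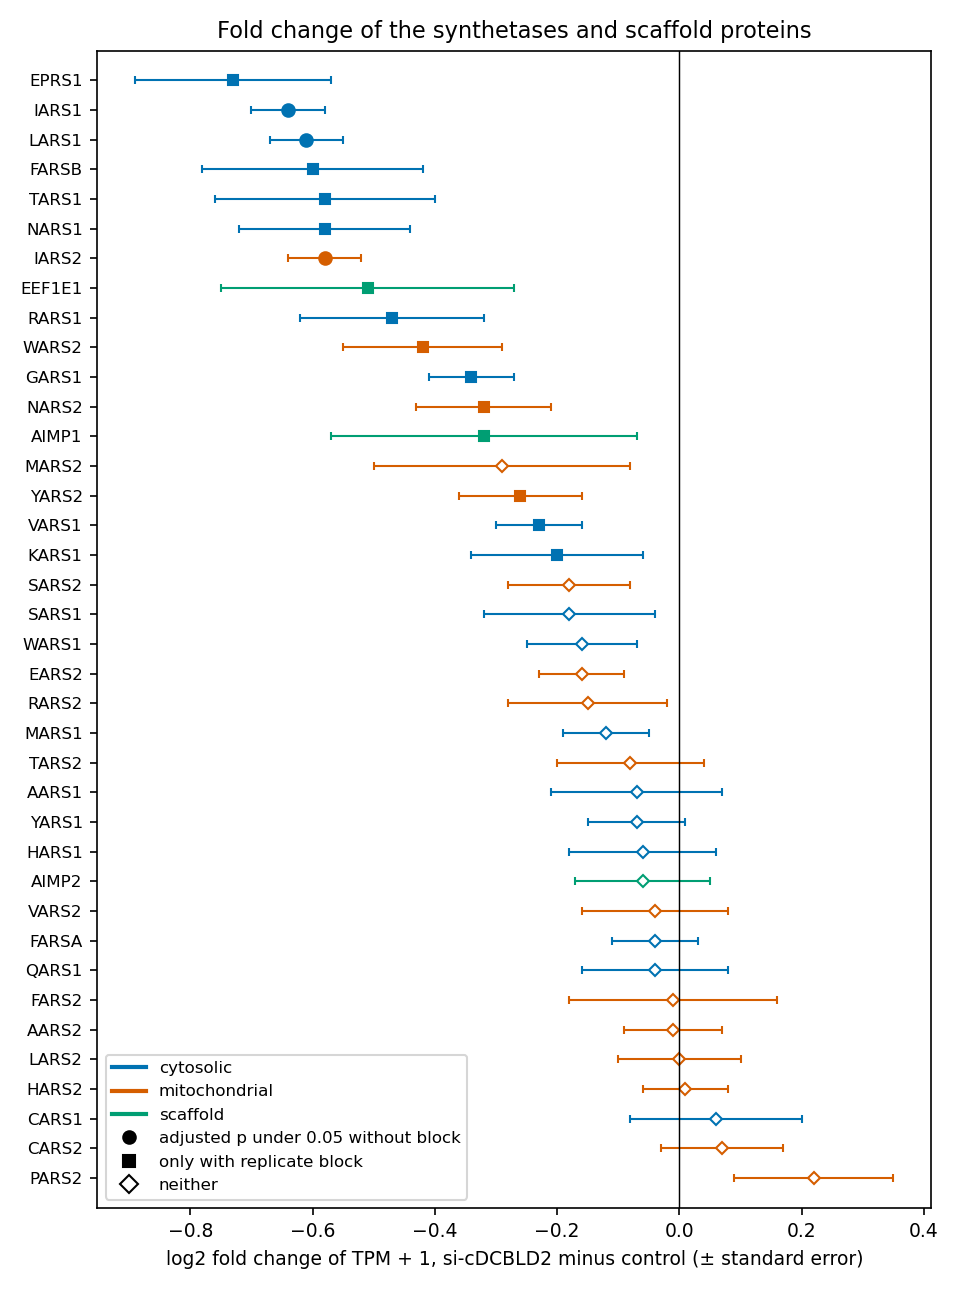
Log2 fold change of TPM + 1 for 38 of the 40 genes (x axis, si-cDCBLD2 minus control, ± standard error), ordered by size and coloured by compartment; filled circles passed without the replicate block, filled squares passed with the block alone and open diamonds passed in neither fit. Most points lie left of 0, from -0.73 for EPRS1 to 0.22 for PARS2.

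Other cytosolic enzymes were not called with or without the block. AARS1, the alanine enzyme and the most abundant of all members, was at 418, 569 and 567 TPM after knockdown and at 474, 578 and 564 TPM in the controls. Replicate 1 was the lowest library in both groups, the groups overlapped, and the log2 fold change was -0.07 (adjusted p = 0.801 in limma, and 0.348 with the block). WARS1, the tryptophan enzyme, was at 69.5, 68.4 and 59.7 TPM after knockdown and at 79.5, 69.8 and 72 TPM in the controls. Its groups did not overlap, but the log2 fold change was -0.16 (adjusted p = 0.294 in limma, and 0.0884 with the block). FARSA, the alpha subunit that pairs with FARSB, was at 169 ± 7.4 TPM (SD, n = 3) with si-cDCBLD2, compared with 174 ± 12.4 TPM (SD, n = 3) with control siRNA, a log2 fold change of -0.04 (adjusted p = 0.765 in limma, and 0.48 with the block). FARSA was called lower with the GC offset and block (-0.16, adjusted p = 0.0339). The 2 subunits form 1 enzyme, yet their mRNA levels differed widely. The ratio of FARSA to FARSB TPM was 11.5, 13.3 and 15.5 after knockdown and 7.76, 9.29 and 9.48 in the controls. The groups did not overlap (p = 0.1 in a two-sided exact permutation test, the lowest value possible with 3 libraries a group). The log2 ratio differed by 0.60, but by 0.10 with overlapping groups after the GC offset.

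Among the mitochondrial enzymes, YARS2, the tyrosine enzyme, was at 33.4, 26.6 and 28.9 TPM after knockdown and at 37.7, 34.8 and 34.1 TPM in the controls. Its groups did not overlap, and its log2 fold change was -0.26 (adjusted p = 0.176 in limma, and 0.028 with the block). NARS2, the asparagine enzyme, was at 23.4, 21.8 and 18.2 TPM after knockdown and at 25.6, 26.5 and 27.1 TPM in the controls. The groups again stood apart, with a log2 fold change of -0.32 (adjusted p = 0.132 in limma, and 0.0472 with the block). WARS2, the tryptophan enzyme, named after its values were seen, had a log2 fold change of -0.42 (adjusted p = 0.109 in limma, and 0.033 with the block). None of YARS2, NARS2 and WARS2 was called with the GC offset and block (-0.19, -0.06 and -0.11, adjusted p = 0.0623, 0.571 and 0.34), and with limma-voom and the block YARS2 was not (adjusted p = 0.077).

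Other mitochondrial enzymes gave no call in either fit. EARS2, the glutamate enzyme, was at 20.2, 21.1 and 21.3 TPM after knockdown and at 23.1, 23.9 and 23.1 TPM in the controls, a log2 fold change of -0.16 (adjusted p = 0.225 in limma, and 0.0851 with the block). LARS2, the leucine enzyme, was at 25.7, 22.5 and 21.9 TPM after knockdown and at 25.2, 21.1 and 23.9 TPM in the controls, and the groups overlapped. PARS2, the proline enzyme, was at 7.22, 8.02 and 9.12 TPM after knockdown and at 7.3, 6.08 and 7.15 TPM in the controls. It had the highest log2 fold change of the 40 genes, 0.22, with overlapping groups (adjusted p = 0.319 in limma, and 0.164 with the block). TARS2, the threonine enzyme, was the most abundant of the 17 mitochondrial enzymes over the 6 libraries together, although IARS2 was above it in the control mean. It was at 88, 110 and 115 TPM after knockdown and at 100, 117 and 113 TPM in the controls. FARS2, the phenylalanine enzyme, was the least abundant of all 40, at 3.52, 4.84 and 5.22 TPM after knockdown and at 3.83, 5.12 and 4.73 TPM in the controls. Both genes had overlapping groups, with log2 fold changes of -0.08 and -0.01.

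AIMP1, a scaffold protein of the complex, was at 16.6, 9.22 and 10.6 TPM after knockdown and at 19.4, 12.6 and 13.8 TPM in the controls. Replicate 1 was the highest in both groups and the groups overlapped, but each knockdown library was below the control of the same number. The log2 fold change was -0.32 (adjusted p = 0.432 in limma, and 0.0237 with the block). It ranged from -0.56 to -0.15 with 1 library left out. EEF1E1, a small scaffold protein named after its values were seen, had a log2 fold change of -0.51 (adjusted p = 0.226 in limma, and 0.0141 with the block). AIMP2, the remaining scaffold protein, had one of -0.06 (adjusted p = 0.764 in limma). No scaffold gene was called with the GC offset and block, where AIMP1 was at 0.11 (adjusted p = 0.198) and EEF1E1 at -0.07 (adjusted p = 0.573).

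Across the list, 36 of 40 members (90.0%) had a negative log2 fold change, as had 62.4% of all genes tested. The median was -0.18 over the members and -0.08 over all genes. Upper-quartile scaling moved the median of all genes to -0.02 and left 27 of 40 members negative, against 53.0% of all genes. Limma-voom moved that median to 0.00 and left 25 members negative, against 49.9% of all genes. The signs of members near 0 thus rest on the scaling. In 17 of 40 members the 3 knockdown libraries were all below the 3 controls, as in 22.3% of all genes, and in 0 members they were all above, as in 9.58% of all genes.

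The summed levels of both compartments were lower. The summed TPM of the 20 cytosolic enzymes was 3000, 3158 and 3075 in the knockdown libraries and 3630, 3667 and 3639 in the controls, 15.6% lower in the mean. That of the 17 mitochondrial enzymes was 472, 480 and 479 after knockdown and 569, 562 and 563 in the controls, 15.4% lower, or 10.2% lower when IARS2 is left out. Neither sum overlapped between the groups. The ratio of the cytosolic to the mitochondrial sum was 6.45 ± 0.114 (SD, n = 3) after knockdown and 6.46 ± 0.0735 (SD, n = 3) in the controls, a difference smaller than the spread between libraries. The median log2 fold change was -0.21 over the cytosolic enzymes, with 11 of 20 called lower with the block, and -0.15 over the mitochondrial enzymes, with 5 of 17, against 25.0% of all genes. With the GC offset and block 8 and 3 were called (40.0% and 17.6%), against 13.1% of all genes. Under limma-voom 14 of the 20 and 9 of the 17 were negative, against 49.9% of all genes, with medians of -0.12 and -0.06. In bulk RNA, fewer cells that express a gene and less of its mRNA per cell cannot be told apart.

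The 11 members of the multisynthetase complex, 8 enzymes and 3 scaffold proteins, all had negative log2 fold changes, with a median of -0.32. With the block 8 of the 11 (72.7%) passed, against 25.0% of all genes. With the GC offset the median was -0.09, and with the block as well 3 of the 11 (27.3%) passed, against 13.1%. Their summed TPM was 1315, 1276 and 1220 after knockdown and 1593, 1578 and 1568 in the controls, 19.6% lower. The enzymes fall into 2 structural classes by the fold of their catalytic domain, and the median was -0.16 over the 18 class I enzymes and -0.18 over the 18 class II enzymes. The difference between the classes was not tested.

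**Figure D3:**
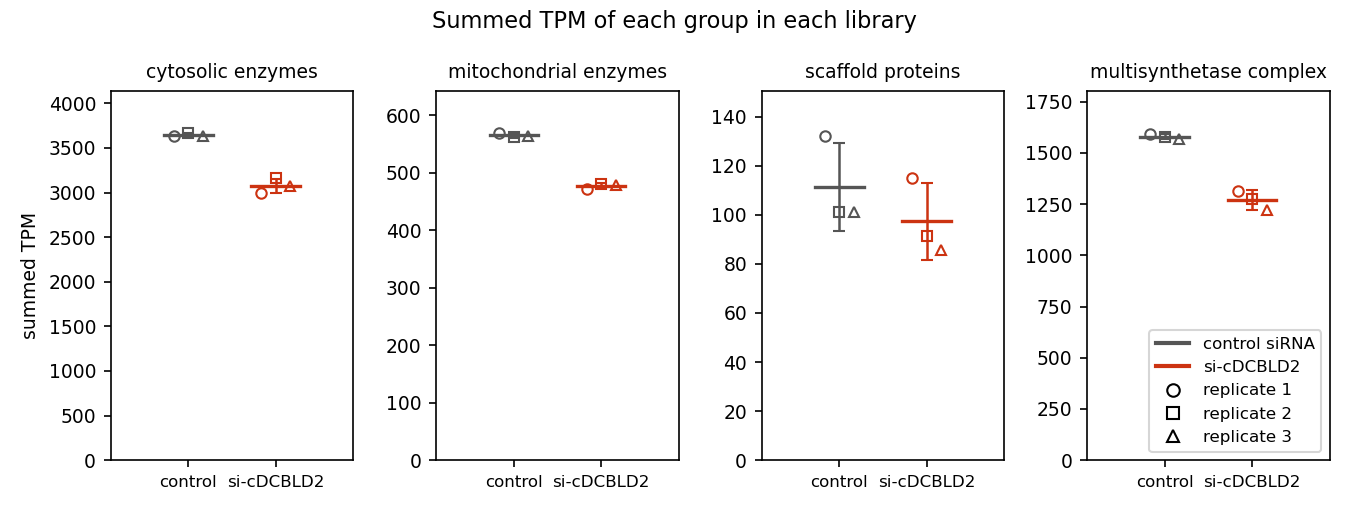
Summed TPM (y axis, from 0) of the cytosolic enzymes, mitochondrial enzymes, scaffold proteins and multisynthetase complex in each library, for control siRNA (grey) and si-cDCBLD2 (red), with the mean ± SD of 3 libraries. The cytosolic, mitochondrial and complex sums do not overlap between groups, while the scaffold sums do.

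To ask whether the 2 enzymes of an amino acid moved differently, the log2 ratio of cytosolic to mitochondrial TPM was taken in each library for 18 pairs of genes. EPRS1 was paired with both EARS2 and PARS2, and FARSA and FARSB with FARS2, so these pairs share a gene. In 16 of 18 pairs the cytosolic mRNA was higher in every library. The groups of ratios did not overlap in 7 pairs, 5 lower and 2 higher after knockdown, and in 5 of these 7 after the GC offset. Over all pairs of tested genes above 0 in every library, the ratios did not overlap in 30.1%. In 4 further pairs, those of FARSB, HARS1, TARS1 and VARS1, the groups overlapped but the ratio was lower in every knockdown library than in the control of the same number. In the pairs of NARS1 and WARS1 the nearest libraries of the groups differed by only 0.0035 and 0.0006. None passed after adjustment over the 18 pairs (two-sided exact permutation tests, smallest p = 0.1, smallest adjusted p = 0.257), and 3 against 3 libraries cannot go below p = 0.1.

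The LARS1 to LARS2 log2 ratio was 1.31, 1.47 and 1.54 after knockdown and 1.89, 2.21 and 2.07 in the controls, a difference of -0.62 with no overlap. The IARS1 to IARS2 ratio was 1.36, 1.36 and 1.26 after knockdown and 1.32, 1.43 and 1.38 in the controls, a difference of -0.05 that overlapped. The EPRS1 to PARS2 ratio had the largest difference, -0.98, from 4.18 ± 0.09 (SD, n = 3) in the controls to 3.19 ± 0.43 (SD, n = 3) after knockdown. The WARS1 to WARS2 ratio was higher after knockdown by 0.32 on the log2 scale in the mean, although the groups nearly touched. After the GC offset this difference was -0.04, that of LARS1 to LARS2 was -0.30 with overlapping groups, and those of IARS1 to IARS2 and EPRS1 to PARS2 were -0.05 and -0.63.

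**Figure D4:**
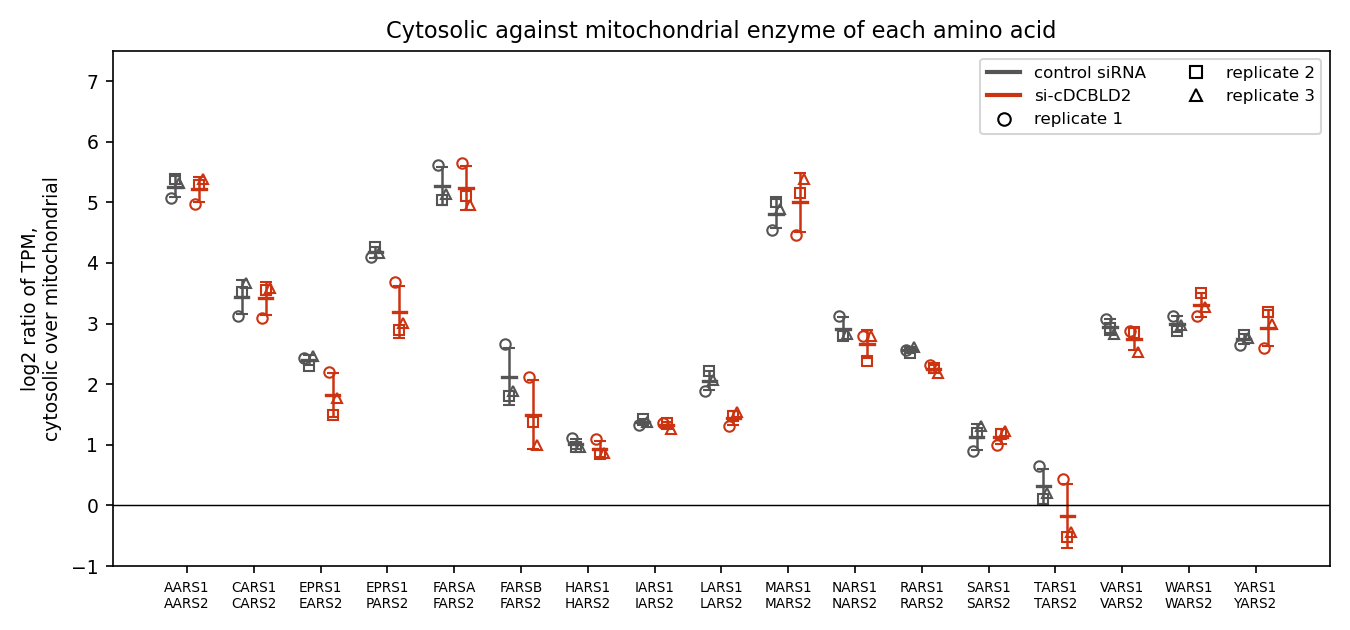
Log2 ratio of cytosolic to mitochondrial TPM (y axis) for 17 of the 18 pairs of enzymes, named under the x axis, in each library of control siRNA (grey) and si-cDCBLD2 (red), with the mean ± SD of 3 libraries. Ratios lie between -0.52 and 5.65, and the pairs of EPRS1, LARS1, NARS1, RARS1 and WARS1 have groups that do not overlap.

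Fold changes across all genes rose with the GC content of the transcript, and 14 of the 18 members called with the block had under 45% GC, as had 15 of the 40. Spearman's rho between GC content and log2 fold change was 0.72 over the 40 members and 0.64 over 13163 genes, given as a description since genes share libraries. The 4 genes called without the block had 41.5% to 43.8% GC. Of the 1280 genes tested in that range, the median log2 fold change was -0.30. Without the block 1.64% of these genes were called lower. With the block 49.9% of them were, as were 8 of the 9 members in that range.

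With a GC trend fitted and subtracted in every library, limma called 0 members without the block (10 members at an unadjusted p under 0.05, as 21.0% of all genes), and 2 lower and 3 higher among all genes. The log2 fold changes were then -0.37 for IARS1, -0.32 for IARS2, -0.26 for LARS1 and -0.44 for EPRS1. With the GC offset and the replicate block together, 11 members were lower, against 13.1% of all genes, and 0 were higher, against 11.3%. The 11 included IARS1, IARS2, LARS1 and EPRS1, and also the GC-rich VARS1 (62.6% GC). Within bins of 2% GC, 31 of 40 members lay below the median of the genes in their bin, 17 of 20 cytosolic and 12 of 17 mitochondrial. AIMP1 was among those above it.

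**Figure D5:**
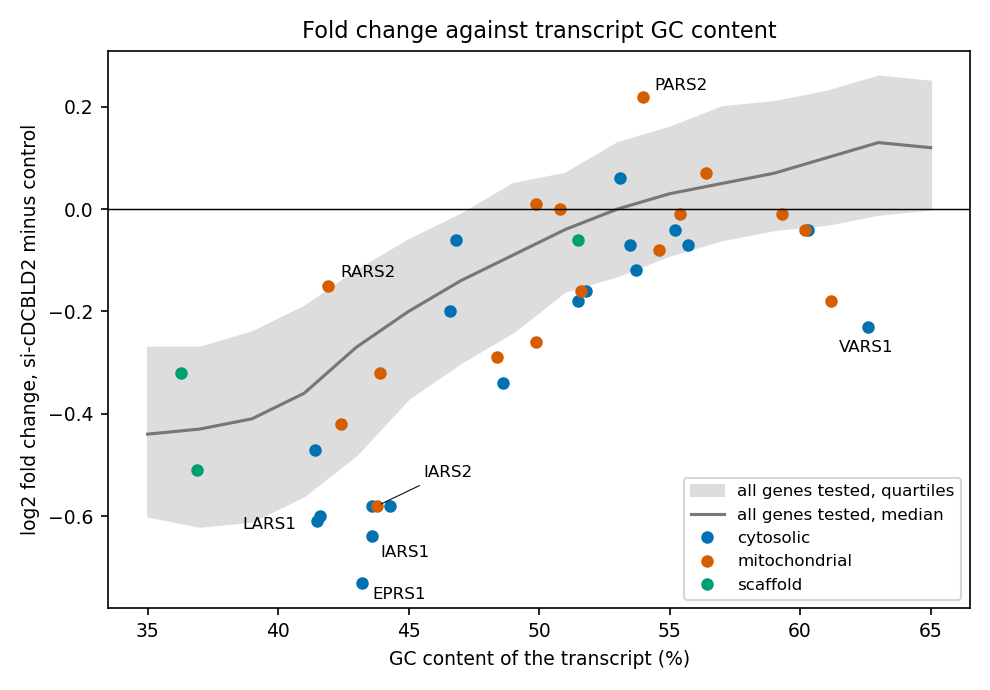
Log2 fold change (y axis, si-cDCBLD2 minus control) against transcript GC content (x axis, %) for 38 of the 40 members, coloured by compartment; the line and band give the median and quartiles of all genes tested in bins of 2% GC. IARS1, LARS1, IARS2 and EPRS1 lie between 41.5% and 43.8% GC and below the band, and VARS1 lies below it at 62.6%.

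Promoter sequences are shown because many synthetase genes carry an amino acid response element, the kind of site that ATF4 and its partners bind. RefSeq promoters (GRCh38.p14, 250 bases before to 50 after each start) matched 33 of the 40 members, with 45 promoters. The letters TGATGNAA were searched on both strands, a search chosen after the values were seen. They occurred in 8 of 45 member promoters (17.8%) and in 3.62% of all 35116 promoters. An E box, CACGTG, was the other motif searched, and it occurred in 6 of 45 member promoters (13.3%, in AIMP2, CARS2, EARS2, IARS1 and MARS2) and in 7.26% of all promoters. These are 30 bases around the TGATGNAA match in each of its 8 genes, 5′ to 3′ on the strand of the gene, with the match in capitals:
IARS1 (chr9:92293692-92293721, minus strand): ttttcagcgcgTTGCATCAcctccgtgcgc
NARS1 (chr18:57621804-57621833, minus strand): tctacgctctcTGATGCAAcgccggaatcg
TARS1 (chr5:33440956-33440985, plus strand): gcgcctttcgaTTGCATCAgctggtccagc
GARS1 (chr7:30594834-30594863, plus strand): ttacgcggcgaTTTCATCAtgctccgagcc
CARS1 (chr11:3057407-3057436, minus strand): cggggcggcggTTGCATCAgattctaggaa
MARS1 (chr12:57488053-57488082, plus strand): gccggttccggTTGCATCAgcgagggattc
AARS1 (chr16:70289675-70289704, minus strand): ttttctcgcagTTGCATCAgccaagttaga
YARS2 (chr12:32756076-32756105, minus strand): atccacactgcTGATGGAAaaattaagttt

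In IARS1 the match began 13 bases before the start, in CARS1 2 bases and in MARS1 4 bases before it, and in AARS1 and YARS2 187 and 197 bases before it. Among the 17 genes of the mitochondrial group, 14 had a promoter entry, and of these YARS2 had a match. The genes with the element did not move alike: IARS1, NARS1, TARS1, GARS1 and YARS2 were lower with the block, while AARS1, CARS1 and MARS1 were not called in that fit, so that 5 of the 8 were called, against 25.0% of all genes. In other fits with the block YARS2 lost its call (adjusted p = 0.0623 with the GC offset) and CARS1 was called higher (adjusted p = 0.0444 with limma-voom). MARS1 overlaps DDIT3, a gene of the same response, on the opposite strand, and reads of the pair may not be separable. The median log2 fold change of the 8 genes with the element was -0.30, against -0.16 over the 25 members with a promoter and no match, a comparison that was not tested. IARS2 and EPRS1 had a promoter and no match. HARS1 and HARS2, the histidine enzymes, are divergent neighbours whose promoter windows share 184 bases on chromosome 5, and their log2 fold changes were -0.06 and 0.01.

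The genes of the amino acid response did not move in a single direction. Of 29 tested, with a median of 0.06, limma called 1 lower and 0 higher without the block, against 0.629% and 0.250% of all genes. Limma-voom also called 1 lower and 0 higher. At an unadjusted p under 0.05, limma called 6 lower and 1 higher, against 19.4% and 6.8% of all genes. With the block it called 7 lower (24.1%) and 7 higher (24.1%), against 25.0% and 9.94% of all genes, with the GC offset and block 6 lower and 5 higher (20.7% and 17.2%, against 13.1% and 11.3%), and with limma-voom and the block 6 lower and 12 higher, against 20.5% and 17.5%. The gene called was EIF2AK4, the kinase that senses uncharged tRNA, at 34.7, 32.6 and 32.8 TPM after knockdown and at 45.7, 45 and 44.9 TPM in the controls (log2 fold change -0.43, adjusted p = 0.0495 in limma). ATF4 itself was at 137, 119 and 120 TPM after knockdown and at 123, 99.7 and 104 TPM in the controls, with a log2 fold change of 0.20 (adjusted p = 0.269 in limma, and 0.0203 with the block; 0.065 with the GC offset and block, and 0.00245 with limma-voom and the block). DDIT3, SESN2 and NUPR1, stress-response genes named after their values were seen, were called higher in all 3 fits with the block, with log2 fold changes of 0.37, 0.46 and 0.28. EIF2AK4, ALDH1L2 and SLC7A11, the last 2 also named after their values were seen, were called lower in all 3. Their log2 fold changes were -0.43, -0.56 and -0.82. ASNS, asparagine synthetase and a target of ATF4, had a log2 fold change of -0.37 (adjusted p = 0.225 in limma, and 0.0151 with the block; -0.22 and 0.0906 with the GC offset and block).

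Partners of tRNA charging in the cytosol were tested as 19 genes, of which 1 was called lower without the block and 0 higher, against 0.629% and 0.250% of all genes. At an unadjusted p under 0.05 in limma, 3 (15.8%) were lower and 0 higher, against 19.4% and 6.8% of all genes. With the block 6 (31.6%) were lower and 0 higher, against 25.0% and 9.94% of all genes, and with the GC offset and block 2 (10.5%) were lower and 1 higher, against 13.1% and 11.3%. Of these partners, limma-voom with the block called 5 lower and 1 higher (EEF1A2, adjusted p = 0.024), against 20.5% and 17.5% of all genes. XPOT, which exports tRNA from the nucleus, was at 118, 93.2 and 107 TPM after knockdown and at 191, 174 and 186 TPM in the controls. Its groups were well apart, with a log2 fold change of -0.79 (adjusted p = 0.0444 in limma), and of -0.43 with the GC offset and block (adjusted p = 0.00553). The elongation factor EEF1A1, which carries charged tRNA to the ribosome, had a log2 fold change of -0.27 (adjusted p = 0.192 in limma, and 0.00873 with the block; -0.09 and 0.0926 with the GC offset and block). Among 25 partners of mitochondrial translation, limma called 0 without the block (7 lower and 0 higher at an unadjusted p under 0.05, against 19.4% and 6.8% of all genes, and 1 lower, MTO1, with limma-voom), with a median of -0.23. With the block 10 (40.0%) were lower and 0 higher, against 25.0% and 9.94% of all genes. With the GC offset the median was -0.04, and with the block as well 6 were lower and 1 higher, against 13.1% and 11.3% of all genes. Limma-voom with the block called 7 lower and 2 higher, against 20.5% and 17.5%. LRPPRC, which stabilises mitochondrial mRNA, was at 80.6, 40.9 and 48.6 TPM after knockdown and at 119, 91.1 and 97.3 TPM in the controls (log2 fold change -0.89, adjusted p = 0.0996 in limma, and 0.0066 with the block; -0.58 and 0.00922 with the GC offset and block). TUFM, the mitochondrial elongation factor, had one of -0.04 (adjusted p = 0.717 in limma).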

How the data were processed

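PolyA-Seq was analysed in 6 libraries, grouped by their labels. The authors deposited TPM per gene. The submitters' processing notes list fastp 0.20.1, HISAT2 2.1.0, StringTie 2.0 and the build hg38, without roles. Strand and multimapping settings are not given in the sources used here.

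The 13980 genes averaging 1 TPM or more were tested by limma 3.58.1 (R 4.3.3) on log2(TPM + 1) with a mean-variance trend, which understates folds of low genes. Calls used a Benjamini-Hochberg adjusted p under 0.05. Deviations of same-numbered libraries from their group means were correlated (correlations 0.560, 0.343 and 0.362), so a fit with the replicate block is given where it changes a call. Correlations between knockdown and control libraries of unlike number were 0.247 and 0.215 for replicates 2 and 3. They were negative where replicate 1 was involved. Reads were recovered from the ratios of TPM between libraries with numpy 2.4.6; 100.0% of the 17285 genes above 0 in all libraries came out whole within 0.01 read, as lower bounds that cover counting error only. The main fit was tested on simulated libraries without a replicate effect or a GC trend, and the recovery on simulated reads. The fits with the block, the GC offset or limma-voom were not tested in this way. GC content, coordinates and overlaps came from GENCODE release 29, which may not be the authors' annotation; 94.2% of tested genes had a GC content, and trends were removed by loess (span 0.5).

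Members and gene lists were chosen with earlier results of these data known. Named members were those past the threshold with or without the block (the 6 highest and 6 lowest fold changes), the most and least abundant in each compartment, and the partners of the 3 enzymes of each compartment with the largest change; other members named were chosen after their values were seen. Results for 2 members are not reported here by name, though counts, sums and medians include them. Alternatives were a pseudocount of 0.1, no filter, upper-quartile scaling, protein-coding genes alone, GC offset, limma-voom on genes with at least 10 reads in 3 libraries, and leaving out each library; voom with the block and a pseudocount of 1 and the GC offset for the ratios were added after seeing the data. Python 3.11.15, scipy 1.17.1 and matplotlib 3.10.9 were used.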

Additional observations from a re-analysis of the deposited data

How the results depend on the processing

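The 4 members called lower numbered 4 also with a pseudocount of 0.1, upper-quartile scaling, protein-coding genes alone and limma-voom, and the same 4 genes were called each time. Among all genes, 107, 62, 288 (of 11793) and 259 (of 15018) were lower in these fits, against 88 of 13980 in the main fit. Members called lower numbered 0 with the GC offset and 0 with no filter, where 1 of 25278 genes was lower and 3 were higher. These members numbered 18 with the replicate block, 11 with the GC offset and block, 15 with limma-voom and block, and 0 to 15 when a library was left out (15 without knockdown replicate 1). Members called higher numbered 1 (CARS1) with limma-voom and block, and 0 otherwise. Over all alternatives the log2 fold change stayed negative for IARS1 (-0.67 to -0.37, adjusted p 0.000166 to 0.223), LARS1 (-0.64 to -0.26), IARS2 (-0.61 to -0.32) and EPRS1 (-0.89 to -0.44). The cytosolic median was -0.12 and the mitochondrial median -0.06 under limma-voom with and without the block, and the mitochondrial median was -0.08 under upper-quartile scaling. Leaving out 1 library gave medians of -0.28 to -0.22 and -0.16 to -0.12. Pairs with separate ratios numbered 7 to 12 (12 without knockdown replicate 1) 6 with either pseudocount and 5 with the GC offset. Among members reported by name, signs turned under the GC offset, with or without the block, for AIMP1 (0.11), LARS2 (0.04), HARS1 (0.09) and RARS2 (0.19). Under limma-voom, with or without the block, they turned for AARS1 (0.03), FARS2 (0.09), LARS2 (0.10) and TARS2 (0.02). In limma-voom without the block they also turned for AARS2 (0.09), AIMP2 (0.04), FARSA (0.06), HARS1 (0.03), QARS1 (0.06), VARS2 (0.06) and YARS1 (0.02). Under upper-quartile scaling they turned for AARS1 (0.01), FARS2 (0.04), LARS2 (0.07), AARS2 (0.06), AIMP2 (0.01), FARSA (0.03), HARS1 (0.01), QARS1 (0.03) and VARS2 (0.03). With a library left out, AARS1 ranged from -0.15 to 0.08, FARS2 from -0.11 to 0.12, LARS2 from -0.07 to 0.05 and TARS2 from -0.16 to 0.03. EEF1E1 then ranged from -0.74 to -0.34, WARS1 from -0.20 to -0.09 and PARS2 from 0.14 to 0.29. The causes were not tested. In 24 of 40 members an exon overlaps another gene and 13 have a pseudogene of the same name, so their reads could be split differently: the library kit named in the labels is not a directional one, LARS1 shares 42 bases with a neighbour, and IARS2 has a pseudogene, while IARS1 and EPRS1 have neither.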
